A study of Homo sapiens with 8 samples.

Results

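TYW1B and AKR7A3 were followed together with their paralogs TYW1 and AKR7A2, which makes 4 of the 10105 genes in the count table of this series. TYW1B and AKR7A3 were picked because their mRNA was far higher in XRN1-null cells while their ribosome footprints were not, so their own changes are given here as descriptions without a test. TYW1 and AKR7A2 were included as the closest relatives of these genes and not for their own values, and were tested. The table holds only genes that the authors kept above an FPKM of 2, so shares, ranks and medians over all genes below describe that selected set, and a gene that is not in the table may still be expressed.

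RNA-Seq and Ribo-Seq were carried out on HEK293T cells, a human embryonic kidney line, that were either wild type (WT) or lacked XRN1 (XRN1-null). Cells were harvested 24 h after plating on 15 cm dishes, with no treatment named in the labels, and each genotype was measured in 2 biological replicates per assay, 8 libraries in all. The XRN1-null cells are a single line made with Cas9 and a guide against an exon of XRN1, so the effect of the deletion cannot be told apart from other features of that line. XRN1 is the cytoplasmic exonuclease that degrades decapped mRNA from the 5′ end. Ribo-Seq sequences the mRNA fragments protected by ribosomes, called ribosome-protected fragments (RPF) or footprints, and the ratio of RPF to mRNA is called translation efficiency (TE).

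TYW1 is an iron-sulfur enzyme of the radical SAM family. It builds the tricyclic core of wybutosine, a hypermodified guanosine next to the anticodon of phenylalanine tRNA that helps to hold the reading frame, from a methylated guanosine made by TRMT5. TRMT12, TYW3, LCMT2 and TYW5 then complete and decorate the base. TYW1B is a duplicate copy of TYW1. AKR7A2 and AKR7A3 belong to the aldo-keto reductases, which reduce aldehydes with NADPH. AKR7A2 reduces succinic semialdehyde, a breakdown product of the transmitter GABA, and both enzymes are known for reducing the dialdehyde of the liver toxin aflatoxin.

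The copies differ little in sequence, which matters for every count below because a read that lies within a stretch shared by both copies cannot be placed by its own sequence. On GRCh37, the build that the authors used under the name hg19, and with the GENCODE 44 annotation, TYW1 lies at chr7:66460160-66704501 on the plus strand with 16 exons in its reference transcript and TYW1B at chr7:72023729-72298779 on the minus strand with 15 exons. AKR7A2 at chr1:19630459-19638638 and AKR7A3 at chr1:19609067-19615264 both have 7 exons on the minus strand, and only 15195 nt lie between them. TYW1B exon 5 and its counterpart in TYW1, exon 6, are shown because they are the longest pair of purely coding exons of equal length. They differ in 6 of 291 bases, which are in capitals in the TYW1 line. TYW1B exon 5 is chr7:72277659-72277949 on the minus strand and TYW1 exon 6 is chr7:66482840-66483130 on the plus strand, each read 5′ to 3′ in the sense of the transcript.
TYW1B exon 5: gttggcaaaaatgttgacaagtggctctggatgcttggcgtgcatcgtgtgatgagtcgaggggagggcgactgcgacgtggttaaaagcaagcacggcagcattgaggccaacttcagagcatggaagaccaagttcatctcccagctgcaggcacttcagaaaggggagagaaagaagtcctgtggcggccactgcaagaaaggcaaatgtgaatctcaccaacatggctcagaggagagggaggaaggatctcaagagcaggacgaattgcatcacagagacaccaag
TYW1 exon 6: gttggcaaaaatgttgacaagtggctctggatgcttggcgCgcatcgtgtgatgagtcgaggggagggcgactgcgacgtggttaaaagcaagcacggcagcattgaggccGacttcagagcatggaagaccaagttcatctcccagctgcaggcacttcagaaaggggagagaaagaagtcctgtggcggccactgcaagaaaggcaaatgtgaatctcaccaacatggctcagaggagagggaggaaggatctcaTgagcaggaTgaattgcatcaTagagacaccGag

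AKR7A3 exon 2, at chr1:19612679-19612866 on the minus strand, is shown for the opposite reason, as the coding exon with the most differences from its counterpart. AKR7A2 exon 2, at chr1:19634949-19635136 on the minus strand, differs from it in 29 of 188 bases. A further copy, AKR7L at chr1:19597242-19597429 on the minus strand, differs from AKR7A3 in 16 bases of this exon. AKR7L is no gene of the count table. Capitals mark the bases that differ from AKR7A3.
AKR7A3 exon 2: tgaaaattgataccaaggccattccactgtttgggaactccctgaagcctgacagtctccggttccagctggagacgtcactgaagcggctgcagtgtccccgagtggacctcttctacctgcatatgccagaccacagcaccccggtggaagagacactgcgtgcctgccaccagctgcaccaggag
AKR7A2 exon 2: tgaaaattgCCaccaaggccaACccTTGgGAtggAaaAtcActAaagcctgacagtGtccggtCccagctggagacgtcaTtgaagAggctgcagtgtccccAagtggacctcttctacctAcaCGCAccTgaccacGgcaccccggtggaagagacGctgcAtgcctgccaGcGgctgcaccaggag
AKR7L: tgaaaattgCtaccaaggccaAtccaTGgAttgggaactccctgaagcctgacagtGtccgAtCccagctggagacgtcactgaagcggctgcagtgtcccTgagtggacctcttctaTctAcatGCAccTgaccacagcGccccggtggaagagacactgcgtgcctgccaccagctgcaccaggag

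Not every exon of TYW1 has a counterpart in the TYW1B transcript. TYW1 exon 3, 138 nt at chr7:66463804-66463941 on the plus strand, has no counterpart in the reference transcript of TYW1B, where its best local alignment covers 10 nt. Still, 70 of the 109 windows of 30 nt within this exon have an exact copy in the TYW1B gene, though 0 of them in that transcript, so reads from the exon are not all specific to TYW1.
TYW1 exon 3: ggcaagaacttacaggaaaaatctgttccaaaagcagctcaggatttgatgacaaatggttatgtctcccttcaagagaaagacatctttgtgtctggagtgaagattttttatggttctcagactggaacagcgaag

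Over the whole coding sequence, 1972 of 2007 aligned bases of TYW1B were identical to TYW1 (98.3%), and the 3′ UTRs were 98.1% identical. AKR7A3 and AKR7A2 were further apart, with 914 of 996 aligned coding bases identical (91.8%) and 3′ UTRs that were 68.2% identical. The similarity of the TYW1 pair also reached upstream of the gene, as the promoters in the RefSeq table (GRCh38.p14) were identical in 264 of 279 aligned bases.

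At the length of a footprint, more than 1 window in 2 of TYW1B could not be told from TYW1. A window of 30 nt had an exact copy elsewhere in the genome or in a transcript of another gene for 59.9% of the start positions in the TYW1B transcript and for 59.0% of those in TYW1, and every one of these copies lay in the paralog. For AKR7A3 the share was 49.6%, but only 13.7% of its windows had a copy in AKR7A2, and AKR7L held the longest match to AKR7A3, 202 nt. AKR7A2 was the most distinct of the 4 transcripts, with a copy for 17.4% of its windows. Longer reads separate the copies better: for windows of 100 nt the share was 19.3% in TYW1B, 18.0% in TYW1, 15.1% in AKR7A3 and 0.397% in AKR7A2. How reads with several placements were counted, which gene annotation was used and how long the RNA-Seq reads were is not given in the sources used here. The libraries were sequenced from both ends, so an RNA-Seq read in a shared window may still be placed through its mate, which these windows do not take into account. The part that read placement plays in the values below was not tested.

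The count table gave 33757487 to 38145433 counts per RNA-Seq library and 1921641 to 4399542 per Ribo-Seq library, with the fewest in WT Ribo-Seq replicate 1. The RNA-Seq totals, unlike the Ribo-Seq ones, are above the numbers of mapped reads that the authors report. Whether both mates of a pair were counted is not given, so a count may not be an independent fragment. CPM below are counts per 1000000 counts of a library after TMM scaling. The targeted gene was measured at 33.5 and 33.0 CPM in the WT RNA-Seq libraries and at 281.6 and 252.6 CPM in the XRN1-null ones, while its footprints were 34.4 and 49.8 CPM in WT against 22.6 and 18.4 CPM in XRN1-null. An edited transcript can still be counted, so the higher XRN1 mRNA does not check the genotype labels. Of 7 markers fixed for HEK293T cells, 5 were in the table (KRT8, KRT18, VIM, NEFL and NEFM) and PAX2 and LHX1 were not, and no blood marker of 5 was in the table.

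TYW1B mRNA was low in WT cells and far higher in XRN1-null cells. Its RNA-Seq counts were 85 and 72 in WT cells against 992 and 980 in XRN1-null cells. On the CPM scale these were 2.40 and 2.19 in WT against 26.2 and 25.2 in XRN1-null, so that the genotypes were well apart and the replicates close. The difference was 3.48 ± 0.112 (log2, SE, n = 2 per genotype), an 11.2-fold higher level in XRN1-null cells. In such bulk samples a smaller share of cells with the mRNA and less mRNA per cell cannot be told apart.

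TYW1B footprints showed nothing of this rise. Ribo-Seq counts were 34 and 116 in WT against 94 and 56 in XRN1-null cells, which is 17.7 and 26.6 CPM in WT against 23.3 and 17.5 CPM in XRN1-null. Both XRN1-null values lay within or just below the WT range, and the difference was -0.18 ± 0.225 (log2, SE, n = 2). Its sign rested on single libraries, as it was 0.24 without WT Ribo-Seq replicate 2 and 0.012 without XRN1-null replicate 2. TE was therefore lower by 12.2-fold in XRN1-null cells, at -3.67 ± 0.264 on the log2 scale.

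AKR7A3 mRNA followed the same course from a still lower level. The counts were only 10 and 15 in the WT RNA-Seq libraries, against 131 and 123 in the XRN1-null ones. These correspond to 0.282 and 0.457 CPM in WT against 3.46 and 3.16 CPM in XRN1-null cells, groups that did not overlap. The difference was 3.16 ± 0.279 (log2, SE, n = 2), or 8.96-fold. With so few WT counts its size rested on single libraries, and it was 2.87 without WT RNA-Seq replicate 1 and 3.53 without replicate 2.

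AKR7A3 footprints were counted 29 and 61 times in WT against 48 and 28 times in XRN1-null cells. In CPM they were 15.1 and 14.0 in WT against 11.9 and 8.74 in XRN1-null, with both XRN1-null libraries below both WT ones. The difference was -0.46 ± 0.243 (log2, SE, n = 2). It was -0.72 without XRN1-null Ribo-Seq replicate 1 and -0.27 without replicate 2, and the TE difference was -3.61 ± 0.373. The footprint CPM of AKR7A3 was above its mRNA CPM in every library of both genotypes.

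TYW1, the parent enzyme, changed far less at the mRNA level. It had 31.9 and 34.6 CPM in WT against 43.2 and 43.3 CPM in XRN1-null cells, and its mRNA was higher by 0.38 ± 0.0714 (log2, SE, n = 2). In edgeR's quasi-likelihood test its p-value, adjusted by Benjamini-Hochberg over all genes, was 0.00228. A gene was called at an adjusted p below 0.005, and at this threshold 22.9% of all genes were higher and 23.2% lower in XRN1-null cells, so a call of this kind was common. The call was lost without either XRN1-null RNA-Seq library, at an edgeR quasi-likelihood adjusted p of 0.0206 without replicate 1 and 0.0216 without replicate 2, while the log2 differences were both 0.38. TYW1 overlaps SBDS and PMS2P4 on the other strand, and whether the counting used strand is not given in the sources used here, so reads of these genes and of TYW1 may not be told apart. SBDS, a ribosome maturation factor, fell by 0.38 on the log2 scale in XRN1-null cells (SE 0.0712; edgeR quasi-likelihood adjusted p = 0.00241).

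TYW1 footprints were 38.5 and 45.7 CPM in WT against 43.0 and 37.5 CPM in XRN1-null cells, and these ranges overlapped. The difference of -0.09 ± 0.160 (log2, SE, n = 2) was smaller than its error (adjusted p = 0.732, edgeR's quasi-likelihood test), against a background of 0.633% of genes called higher and 1.14% called lower at the RPF level. Its sign changed when single libraries were left out, to 0.0814 without WT Ribo-Seq replicate 2 and 0.0099 without XRN1-null replicate 2. The TE of TYW1 differed by -0.47 ± 0.159 and was not called (adjusted p = 0.0968, same test on the interaction of assay and genotype). This difference lay between -0.58 and -0.30 when single libraries were left out, the smallest without WT Ribo-Seq replicate 2. At the TE level 0.0495% of genes were called higher and 1.78% lower.

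The mRNA of AKR7A2 was lower in XRN1-null cells, unlike that of AKR7A3, and its footprint difference missed the threshold. AKR7A2 mRNA was 80.5 and 78.3 CPM in WT against 62.1 and 62.6 CPM in XRN1-null cells, and fell by 0.35 on the log2 scale (SE 0.0617, n = 2; adjusted p = 0.00171, edgeR's quasi-likelihood test). As for TYW1, this call was lost without either XRN1-null RNA-Seq library, with edgeR quasi-likelihood adjusted p-values of 0.0337 and 0.0291 at log2 differences of -0.34 and -0.36. Its footprints were 85.9 and 84.5 CPM in WT against 51.6 and 61.2 CPM in XRN1-null cells, groups that did not overlap. The RPF difference of -0.60 ± 0.145 (log2, SE, n = 2) missed the threshold at an adjusted p of 0.0190 in edgeR's quasi-likelihood test, but passed it without either WT Ribo-Seq library, at 0.000127 without replicate 1 and 0.000521 without replicate 2. Without an XRN1-null Ribo-Seq library it moved away from the threshold, to an edgeR quasi-likelihood adjusted p of 0.312 (log2 -0.48) without replicate 1 and 0.0820 (log2 -0.72) without replicate 2, and DESeq2 gave an adjusted p of 0.0787. With the replicate number as a block the difference was called (log2 -0.59, adjusted p = 0.00199, edgeR's quasi-likelihood test). The TE difference of AKR7A2, -0.25 ± 0.137, was not called (adjusted p = 0.298, edgeR's quasi-likelihood test), and lay between -0.37 and -0.13 when single libraries were left out, the smallest without XRN1-null Ribo-Seq replicate 1.

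**Figure D1:**
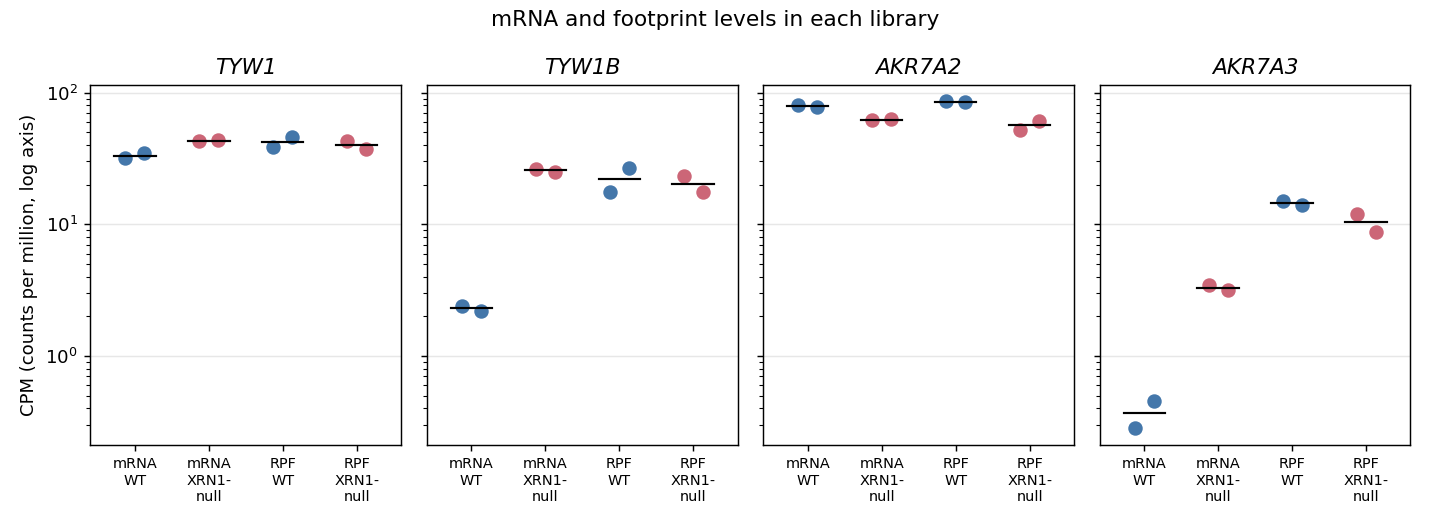
CPM of the 4 genes in each library, on a log axis, with mRNA (RNA-Seq) and RPF (Ribo-Seq) in WT (blue) and XRN1-null (red) cells. Points are single libraries and black lines are the means of 2. The mRNA means of TYW1B (2.30 to 25.7 CPM) and AKR7A3 (0.370 to 3.31 CPM) are far apart between genotypes, whereas the RPF means are not.

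Per length of the gene as given in the count table, TYW1B mRNA was at 0.727 ± 0.0465 CPM per kb in WT cells and 8.14 ± 0.234 in XRN1-null cells (SD, n = 2), beside 9.88 ± 0.552 and 12.9 ± 0.0252 for TYW1. In WT cells TYW1B mRNA was thus under the level of 2 at which the authors kept genes, and above it in XRN1-null cells and in both Ribo-Seq groups. Footprints per kb of TYW1B were 7.03 ± 2.00 in WT and 6.47 ± 1.31 in XRN1-null cells, and those of TYW1 were 12.5 ± 1.51 and 12.0 ± 1.16. In the other pair AKR7A3 mRNA stood at 0.298 ± 0.0994 and 2.67 ± 0.173 CPM per kb in WT and XRN1-null cells, against 30.3 ± 0.605 and 23.8 ± 0.146 for AKR7A2, so AKR7A3 mRNA too was above 2 only in XRN1-null cells. The footprint levels of this pair per kb were 11.7 ± 0.623 and 8.32 ± 1.81 for AKR7A3 and 32.5 ± 0.382 and 21.5 ± 2.57 for AKR7A2.

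The share that each duplicate took of the counts of its pair does not depend on library totals. TYW1B took 6.99% (95% Wilson interval 5.69 to 8.56) and 5.97% (4.76 to 7.45) of the RNA-Seq counts of TYW1 and TYW1B in WT cells, and 37.8% (35.9 to 39.6) and 36.7% (34.9 to 38.6) in XRN1-null cells. Of the footprints of the pair it took 31.5% (23.5 to 40.7) and 36.8% (31.7 to 42.3) in WT and 35.2% (29.7 to 41.1) and 31.8% (25.4 to 39.0) in XRN1-null cells. The footprint share was thus similar in all 4 Ribo-Seq libraries, and the mRNA share was close to it in XRN1-null cells but not in WT cells. These intervals cover counting error only and treat every count as independent. Those for RNA-Seq are too narrow if both mates of a pair were counted.

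AKR7A3 took 0.349% (95% Wilson interval 0.190 to 0.642) and 0.580% (0.352 to 0.955) of the RNA-Seq counts of AKR7A2 and AKR7A3 in WT cells. In XRN1-null cells its share was 5.28% (4.47 to 6.24) and 4.80% (4.04 to 5.70). The footprint shares were 14.9% (10.6 to 20.6) and 14.2% (11.2 to 17.8) in WT and 18.75% (14.4 to 24.0) and 12.5% (8.79 to 17.5) in XRN1-null cells. Unlike for TYW1B, the mRNA share stayed below the footprint share in both genotypes.

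When the counts of each pair were added before the fit, TYW1 and TYW1B together had an mRNA difference of 0.96 ± 0.0664, an RPF difference of -0.11 ± 0.164 and a TE difference of -1.08 ± 0.166 (log2, SE, n = 2). These sums hold the counts on which TYW1B and AKR7A3 were picked and are given without a test. For AKR7A2 and AKR7A3 together the differences were -0.28 ± 0.0614 for mRNA, -0.58 ± 0.138 for RPF and -0.30 ± 0.126 for TE, close to those of AKR7A2, which supplied most of the counts.

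The ratio of RPF CPM to mRNA CPM was above the median of the table for all 4 genes in WT cells. It was 9.66 for TYW1B (7.38 to 12.2 over the pairs of libraries), rank 69 from the top among 10090 genes, and 39.4 for AKR7A3 (30.7 to 53.5), rank 24. The median over these genes was 0.820. In XRN1-null cells TYW1B fell to 0.794 (0.667 to 0.927), next to the median of 0.797, at rank 5070. AKR7A3 stood at 3.12 (2.52 to 3.77), rank 170. The ratios of TYW1 were 1.27 and 0.929, and those of AKR7A2 were 1.07 and 0.905, in WT and XRN1-null cells. As the genes were chosen on these values and had WT mRNA below the level at which the authors kept genes, the ratios and ranks are a description and support nothing further.

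In their annotation the genes also differed. TYW1B has 3 transcripts in GENCODE 44 and AKR7A3 has 1, all of them protein coding. Of the 6 transcripts of TYW1 and the 5 of AKR7A2, 1 each is annotated as a target of nonsense-mediated decay. In TYW1B exons 8 and 9 of the reference transcript, which code for protein, are separated by a gap of 1 base. Such a gap is too short for an intron and belongs to the transcript model as placed on GRCh37. The exon number given for TYW1B includes this break.

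The genes whose pattern over the 8 libraries was most like TYW1B were named by the Euclidean distance between log2(CPM + 0.5) values, centred on the mean of the gene within each assay. They were CCT6P3 (distance 0.623), NAIP (0.715) and CCT6P1 (0.798), against a median distance of 3.31 over all other genes. CCT6P3 and CCT6P1 are pseudogenes of the chaperonin subunit gene CCT6A and so, like TYW1B, copies of another gene. Their mRNA differences were 2.84 and 2.56 (log2), and their ratios of RPF to mRNA in WT cells were 32.3 and 15.8. NAIP, an inhibitor of apoptosis family member that senses bacterial proteins, had an mRNA difference of 3.15 and a WT ratio of 1.10. AKR7A3 was the 17th nearest gene to TYW1B, at a distance of 1.29, while TYW1 came in place 1934, at 2.87. These distances use the values on which TYW1B and AKR7A3 were picked. Their nearness to each other and to genes with a like rise, and their distance from the paralogs, largely follow from that choice. The places are a description only.

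For AKR7A3 the nearest genes were ZNF383 (0.657), a zinc finger gene, MRPS31P5 (0.658), a pseudogene of a mitochondrial ribosomal protein gene, and PDXDC2P (0.673), a pseudogene of PDXDC1. Their mRNA differences of 1.90 to 1.99 were smaller than that of AKR7A3, and the added 0.5 CPM shrinks the differences of a gene as low as AKR7A3. Its paralog AKR7A2 came in place 7534 at 2.54. TYW1 was near to ACTR1B (0.0972) and KIF1A (0.0990), and AKR7A2 to COL4A2, SLC39A11 and MOGS (0.0933 to 0.126). No test was made of these distances.

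Among the 5 other genes of the wybutosine pathway, 1 rose and 2 fell at the mRNA level in edgeR's quasi-likelihood test, and none was called at the RPF or TE level. Over all genes 22.9% were called higher and 23.2% lower for mRNA, so counts of this size in 5 genes do not set the list apart. An unadjusted edgeR p under 0.05 was reached by 1 of them for RPF and by 1 for TE, and DESeq2 called 0 and 1. Over all genes such unadjusted p-values were found for 33.0% at the RPF level and for 23.3% at the TE level. DESeq2 called 2.08% of all genes for RPF and 3.26% for TE. TYW5, the hydroxylase of the pathway, rose from 17.8 to 47.8 CPM (log2 1.42, SE 0.0916), with a TE difference of -1.14 (SE 0.225) that missed the threshold at an adjusted p of 0.0100 in edgeR's quasi-likelihood test. TRMT12, which adds the side chain after TYW1, fell from 25.7 to 12.8 CPM (adjusted p = 5.49e-05, edgeR's quasi-likelihood test), and LCMT2, which completes the side chain, fell from 25.2 to 17.8 CPM (log2 -0.50, SE 0.0958). TRMT5, the methyltransferase that makes the substrate of TYW1, stood at 36.5 and 36.0 CPM and was not called. The median difference of the 5 genes was -0.27, beside -0.01 over all genes.

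Of 6 other radical SAM enzymes in the table, 4 rose at the mRNA level, none fell and none was called for RPF or TE in edgeR's quasi-likelihood test. They were CDK5RAP1 (log2 0.87, SE 0.0825) and CDKAL1 (0.79, SE 0.149), which add methylthio groups to tRNA, ELP3 (0.69, SE 0.104), the catalytic subunit of Elongator, and LIAS (0.47, SE 0.1002), the lipoyl synthase. The list median was 0.58, beside -0.01 over all genes, of which 22.9% were called higher and 23.2% lower. For RPF and for TE 2 of the 6 had an unadjusted edgeR p under 0.05, as did 33.0% (RPF) and 23.3% (TE) of all genes, and DESeq2 called 0. The shares of all genes called by edgeR were 0.633% higher and 1.14% lower for RPF, and 0.0495% and 1.78% for TE. By DESeq2 they were 2.08% for RPF and 3.26% for TE. Among 3 other reductases with a flavodoxin domain like that of TYW1, MTRR, which reactivates methionine synthase, rose by 0.44 (SE 0.0609) and NDOR1, an electron donor for iron-sulfur assembly, by 1.21 (SE 0.0643), and POR, which supplies electrons to cytochromes P450, was not called at -0.11 (SE 0.102). None of the 3 was called for RPF or TE in this edgeR test (0 for RPF and 2 for TE at an unadjusted p under 0.05, and 0 for both in DESeq2), and their median mRNA difference was 0.44, beside the same values over all genes.

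Of 16 aldo-keto reductase names, 4 were in the table, and the 2 beside AKR7A2 and AKR7A3 were AKR1A1 and AKR1B1. AKR1B1, aldose reductase, fell from 235.0 to 185.9 CPM (log2 -0.34, SE 0.0702; adjusted p = 0.00374, edgeR's quasi-likelihood test), and AKR1A1, which reduces glucuronate, was not called at -0.09 (SE 0.0611). In the metabolism of GABA and succinic semialdehyde, GAD1, which makes GABA from glutamate, rose from 7.83 to 23.2 CPM (log2 1.56, SE 0.0992), and ALDH5A1, which oxidises the semialdehyde that AKR7A2 reduces, fell from 51.0 to 36.2 CPM (log2 -0.49, SE 0.0984). The median mRNA differences of the 2 other genes in each list were -0.21 for the reductases and 0.54 for GABA metabolism, beside -0.01 over all genes. Over all genes 22.9% were called higher and 23.2% lower for mRNA, 0.633% and 1.14% for RPF, and 0.0495% and 1.78% for TE. None of these 4 genes was called at the RPF or TE level in edgeR's quasi-likelihood test or in DESeq2. At an unadjusted edgeR p under 0.05 there were 0 for RPF, and for TE 1 in the GABA list and 0 among the reductases. Over all genes such a p was found for 33.0% (RPF) and 23.3% (TE), and DESeq2 called 2.08% and 3.26%.

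TYW1 and TYW1B lie in a stretch of chromosome 7 (7q11) with many duplicated genes. Of 36 names of such genes 17 were in the table, and 6 of them rose and 1 fell at the mRNA level, 1 had a lower TE and none was called for RPF in edgeR's quasi-likelihood test. Over all genes the shares called were 22.9% and 23.2% for higher and lower mRNA and 1.78% for lower TE. An unadjusted edgeR p under 0.05 was found in 2 of the 17 for RPF and 7 for TE, beside 33.0% and 23.3% of all genes, and DESeq2 called 0 and 2. Of all genes DESeq2 called 2.08% for RPF and 3.26% for TE. The largest rise in the list was that of PMS2P3, a pseudogene of the mismatch repair gene PMS2, from 5.93 to 19.2 CPM (log2 1.69, SE 0.105), with footprints of 24.5 and 23.7 CPM. It was also the gene with the lower TE (log2 -1.70, SE 0.224; adjusted p = 0.000977, edgeR's quasi-likelihood test), and its ratio of RPF to mRNA in WT cells was 4.13, rank 138. PMS2P9 (log2 1.06, SE 0.147), STAG3L4 (0.84, SE 0.0801) and NSUN5P1 (0.73, SE 0.0953) rose as well, and SBDS fell. The list median was 0.26 for mRNA, -0.06 for RPF and -0.36 for TE, beside -0.01, 0.00 and 0.01 over all genes. The list holds both parent genes and their copies, and windows shared between these were not searched.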

How the data were processed

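RNA-Seq libraries were made from total RNA with the TruSeq kit. The authors state that 5′ fragments of cleaved mRNA, which have no poly(A) tail, are not seen in this RNA-Seq. Counts per gene do not tell a 3′ fragment from a whole mRNA. The part of such fragments in the mRNA and TE differences above was not tested. Per the labels and the methods of the study, ribosomal RNA reads were removed with Bowtie2, the other reads were mapped to hg19 with Tophat2, footprints of 29 and 30 nt were kept, reads were counted with QuasR, and genes above an FPKM of 2 were kept. Sequencing was paired-end. The authors deposited raw counts per gene for all 8 libraries with a gene width, and this table was used. Their tables of fold changes, p-values and TE from edgeR and RiboDiff were not used.

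Samples were grouped by the genotype and assay in their labels. Counts were fitted with edgeR 4.0.16 in R 4.3.3 with TMM factors within each assay and genotype as the only term, and TE as the interaction of assay and genotype over 8 libraries. The quasi-likelihood test was used, with p-values adjusted by Benjamini-Hochberg over 10105 genes and a threshold of 0.005, without a further filter on counts. Standard errors are the log2 difference divided by the square root of F. Totals of 33757487 to 38145433 (RNA-Seq) and 1921641 to 4399542 (Ribo-Seq) set the precision, and only 10 to 15 WT mRNA counts lie behind AKR7A3. With 2 libraries per group an exact permutation test cannot reach 0.05, and none was made. Tested on simulated counts for 10105 genes, the mRNA test recovered 100% of 100 genes changed by a log2 value of 1, the RPF test 75% of 100 and the TE test 73.8% of 195. The simulated spread was fixed for each assay and not estimated from these data, and few genes were changed. These rates are thus not the power of the tests on the real counts.

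Windows of the reference transcripts (GENCODE 44 on GRCh37) were searched for exact copies on both strands of the genome and in transcripts of other genes. Exons of equal length were compared base by base, and coding sequences and UTRs were aligned with Biopython 1.88. No protein sequence is shown.

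The 4 genes, the gene lists and the markers were chosen with earlier results of these data known, so the lists are not independent evidence. Named genes are the 4 genes, XRN1, at most 4 members per list, the genes within 250 kb and the 3 genes with the smallest distance to each of the 4, of which some are not reported here. DESeq2 1.42.0, RLE factors, library totals, a minimum of 10 counts, replicate blocks, thinned RNA-Seq counts, summed pairs, leaving out each library and an adjusted p below 0.05 for the lists were tried as alternatives.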

Additional observations from a re-analysis of the deposited data

How the results depend on the processing

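The mRNA differences of TYW1B and AKR7A3 kept their direction under every alternative except the sum of AKR7A2 and AKR7A3. After thinning of the RNA-Seq counts to the depth of Ribo-Seq they were 3.67 and 3.75 (log2), and with the counts of each pair added 0.96 and -0.28. Leaving out a library gave 3.42 to 3.57 for TYW1B and 2.87 to 3.53 for AKR7A3. TE of AKR7A3 was -4.21 with thinned counts and -0.30 for the summed pair, and TE of TYW1B was -1.08 for the summed pair, where the construction adds the counts of the more abundant paralog. The sums hold counts of genes picked for this contrast and are given without a test. Leaving out a library gave mRNA differences of 0.34 to 0.44 for TYW1 and -0.37 to -0.31 for AKR7A2, and both calls were lost without either XRN1-null RNA-Seq library, where the lone sample is assumed to vary like the other group. RPF differences over the same alternatives were -0.19 to 0.08 for TYW1, with the sign changed without WT Ribo-Seq replicate 2 (0.0814) or XRN1-null replicate 2 (0.0099), -0.40 to 0.24 for TYW1B, -0.72 to -0.48 for AKR7A2 and -0.72 to -0.27 for AKR7A3. TE differences were -0.58 to -0.30 for TYW1 and -0.37 to -0.13 for AKR7A2, and neither was called. Deviations of same-numbered libraries correlated at 0.190 for RNA-Seq and 0.0803 for Ribo-Seq, and those of the RNA-Seq and Ribo-Seq libraries of a genotype at 0.355 in WT and 0.0326 in XRN1-null cells. The labels name no shared batch or culture, and the numbers were not taken as pairing. With the replicate block the RPF difference of AKR7A2 was called (-0.59, adjusted p = 0.00199, edgeR), RPF calls over all genes went from 64 higher and 115 lower to 616 and 665, and mRNA calls from 2313 and 2344 to 2858 and 2805. TE calls went from 5 and 180 to 7 and 190 with this block and to 55 and 435 with a block for both assays of 1 genotype and replicate number. Among list counts and window shares 38 alternative values stayed and 20 moved. At an adjusted p below 0.05 the NRF2 list had 4 higher mRNAs and 2 higher and 1 lower RPF, the 7q11 list 2 lower mRNAs, 1 higher RPF and 4 lower TE, the radical SAM list 1 lower mRNA, and the wybutosine, flavodoxin and GABA lists 1 lower TE each. The share of all genes called at this looser threshold is not given here, so these counts do not set any list apart. Few footprints (28 to 116 for TYW1B and AKR7A3 per library) limit what RPF differences can be seen.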

Other observations

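Within 250 kb of AKR7A2 and AKR7A3, 4 other genes of the table lie on chromosome 1, and 2 of them rose at the mRNA level in edgeR's quasi-likelihood test, where 22.9% of all genes were called higher and 23.2% lower. UBR4, a ubiquitin ligase 72307 nt from AKR7A3, rose from 122.5 to 347.6 CPM (log2 1.504, SE 0.0759) and its TE fell by 1.65 on the log2 scale (SE 0.152; adjusted p = 8.56e-05, same edgeR test), and EMC1, a subunit of the membrane insertase of the endoplasmic reticulum, rose by 0.32 (SE 0.0630). MRTO4, a ribosome assembly factor and the nearest on the lower side at 22445 nt, and CAPZB, an actin capping subunit and the nearest on the higher side of AKR7A2 at 26631 nt, were not called at -0.12 and -0.18. None of the 3 neighbours of TYW1B was called for mRNA by edgeR, where 1 had an unadjusted p under 0.05, and DESeq2 called 1, POM121. Over all genes 69.9% had such a p for mRNA and DESeq2 called 50.8%. The 3 neighbours were SBDSP1, a copy of SBDS at 1225 nt (log2 0.18, SE 0.0831), NSUN5P2 (0.26, SE 0.143) and POM121 (0.28, SE 0.0631), all on the side of higher coordinates. Of the 5 neighbours of TYW1, 2 rose and 2 fell, and the nearest that do not overlap it were TMEM248 on the lower side (log2 -0.49, SE 0.0759) and STAG3L4 on the higher side (0.84, SE 0.0801).

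Among 12 targets of NRF2, the regulator of the oxidative stress response, 2 rose and 2 fell at the mRNA level, where 22.9% of all genes were called higher and 23.2% lower, and none was called for RPF or TE in edgeR's quasi-likelihood test. At an unadjusted edgeR p under 0.05 there were 5 for RPF and 1 for TE, and DESeq2 called 0. Over all genes 33.0% (RPF) and 23.3% (TE) had such a p, and edgeR called 0.633% higher and 1.14% lower for RPF and 0.0495% and 1.78% for TE. DESeq2 called 2.08% of all genes for RPF and 3.26% for TE. SLC7A11, the cystine transporter, rose by 0.54 (log2, SE 0.0627), while HMOX1, heme oxygenase, fell by 0.73 (SE 0.0869) and SRXN1, sulfiredoxin, fell by 0.38 (SE 0.0673). HMOX1 footprints differed by -0.76 (SE 0.145; adjusted p = 0.00725, edgeR's quasi-likelihood test). The median mRNA difference of the list was 0.13, beside -0.01 over all genes. Of 4 fibroblast markers COL1A1 was in the table, with a mean of 14.6 CPM over the WT and 37.1 CPM over the XRN1-null RNA-Seq libraries, and COL1A2, DCN and LUM were not.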
